A study of Mus musculus with 4 samples.

Results

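The genes described here are 43 genes of glycolysis and of the response to low oxygen, chosen by symbol: 4 transporters of glucose and lactate, 19 glycolytic enzymes, 2 enzymes that set fructose 2,6-bisphosphate, 3 genes at the entry of pyruvate into mitochondria, 3 of glycogen metabolism and 12 of the hypoxia response. Each of the 43 symbols had a single locus among the 23699 entries of the deposited table. Of the 43, 40 reached at least 1 FPKM (sequenced fragments scaled for transcript length and library size) in at least 2 libraries and were tested with 10367 entries in all. The other 3, Hk3, Ldhb and Car9, stayed under that level.

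Glycolysis splits glucose into pyruvate, and cells that divide or lack oxygen turn much of that pyruvate into lactate and export it. When oxygen is low, prolyl hydroxylases (Egln proteins) no longer mark the factor Hif1a for destruction, and Hif1a with its partner Arnt binds short ACGTG or GCGTG motifs and switches on glycolytic enzymes, glucose transporters and genes such as Vegfa, Bnip3 and Ankrd37. Stimulated B cells raise glucose uptake, and in mice Hif1a has been linked to the production of Il10 by B cells.

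RNA came from splenic B cells of C57BL/6 mice, all cultured for 48 h with an antibody to Cd40, with LPS, PMA and ionomycin added over the final 5 h. B10+ cells were sorted as high in Cd1d and positive for Cd5 and Il10, and B10- cells as negative for Cd1d, Cd5 and Il10, so the groups differ by sort in Cd1d and Cd5 as well as in Il10, and no unstimulated cells are among the 4 libraries. Both subsets were sorted from each of 2 cultures, 1 library apiece (n = 2 per subset), and the deposited sample sheet calls the libraries of a culture a batch. The labels give neither the age of the mice nor the number of mice behind a culture. The comparison asks how Il10-producing B cells high in Cd1d and positive for Cd5 differ from B cells of the same culture negative for all of these. Other B cells of a culture are in neither group.

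The values are the authors' FPKM, and those of a culture are given below for B10+ cells first and B10- cells second. Folds of a gene are ratios of FPKM. Log2 differences and counts of genes past a fold are on the log2(FPKM + 1) scale unless stated. Low values clustered at whole multiples of a smallest step, and for a transcript of 1 kb the size of a step put 1 FPKM at about 28.2 and 24.2 fragments in culture 1 and 21.7 and 33.2 fragments in culture 2. No measure of depth other than low values was used, and the fragments of Car9 below rest on ratios of low values between libraries. Of the B cell markers, Ms4a1 was at 195 and 253 FPKM in culture 1 and 66.7 and 65.5 FPKM in culture 2, and Cd79b at 116 and 105 FPKM in culture 1 and 11.47 and 2.34 FPKM in culture 2. Both were thus lower in culture 2, as most of the 43 genes were. Cd79a was at 25.9 and 20.8 FPKM in culture 1 and 31.4 and 8.04 FPKM in culture 2, and Cd22 at 16.5 and 36.5 FPKM in culture 1 and 9.47 and 11.8 FPKM in culture 2. The summed level of 6 T cell markers was 2.52 and 0.155 FPKM in culture 1 and 4.12 and 0.232 FPKM in culture 2, and 5 of the 6 were higher in B10+ cells of both cultures. Markers of neutrophils, NK cells and platelets summed to under 1 FPKM in every library, and 6 macrophage markers to at most 9.0 FPKM. The 4 dendritic cell markers summed to 23.0 and 28.3 FPKM in culture 1 and 3.42 and 1.33 FPKM in culture 2. Most of the sum in culture 1 was Flt3, at 20.9 and 26.7 FPKM. Xcr1 was also lower in culture 2, while Itgax rose from 0.281 and 0.196 FPKM to 1.51 and 0.411 FPKM. The 4 erythroid markers summed to 29.1 and 39.7 FPKM in culture 1 and 44.7 and 81.8 FPKM in culture 2, nearly all of it Hbb-b1. This sum was lower in B10+ cells of both cultures and higher in culture 2. The 4 plasma cell markers summed to 182 and 104 FPKM in culture 1 and 99.6 and 56.2 FPKM in culture 2. Of these 4, Xbp1, Igj and Sdc1 were lower in culture 2, while Prdm1 rose from 9.94 and 2.27 FPKM to 22.5 and 7.96 FPKM. The part of these cell types in the results below was not tested. In bulk RNA, fewer cells of a type and less RNA per cell cannot be told apart.

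None of the 40 tested genes passed the test between B10+ and B10- cells. With the culture as a replicate block, limma called 0 members higher and 0 lower, against 0.781% of all tested entries called higher and 0.0772% called lower (0.858% in either direction); the p-values rest on 2 cultures. Without the block it called 0 of 10367 entries, with 0 members and 118 entries (1.14%) at an unadjusted p under 0.05. With the block, 3 members had an unadjusted p under 0.05 (Vegfa, Ndrg1 and Pfkl), 7.5% of the 40 against 15.2% of all tested entries. The median difference of the 40 members, B10+ minus B10- on the log2(FPKM + 1) scale, was -0.028. It was -0.21 in culture 1 and 0.21 in culture 2, against -0.0085 and 0.021 over all tested entries. The sign was the same in both cultures for 18 members, 8 of them higher in B10+ cells (all entries: 33.4%) and 10 lower (all entries: 31.8%), and opposite for 22. When the FPKM of every library were rescaled to the same sum, the median became 0.20 and 13 members changed sign, Aldoa, Pkm2, Ldha and Mif among them. Before it, the FPKM summed to 3.18e+07 and 2.72e+07 in culture 1 and 3.09e+07 and 5.39e+07 in culture 2. After quantile normalization 4 members changed sign, and after rescaling over entries of at least 1000 bp 0 did.

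A missed threshold does not show equal levels, so the intervals of the differences are given. For 32 of the 40 members the 95% interval of the log2 difference, in the fit with the block, lay within 2-fold either way, as it did for 83.1% of all tested entries. The difference itself was under 2-fold in both cultures for 36 members (all entries: 90.8%). The 8 members whose intervals reached past 2-fold were Vegfa, Pfkl, Hk1, Aldoc, Tpi1, Eno1, Eno2 and Ndrg1. That fit leaves a single residual degree of freedom per gene, so its intervals rest largely on the spread limma estimates over all entries.

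**Figure D1:**
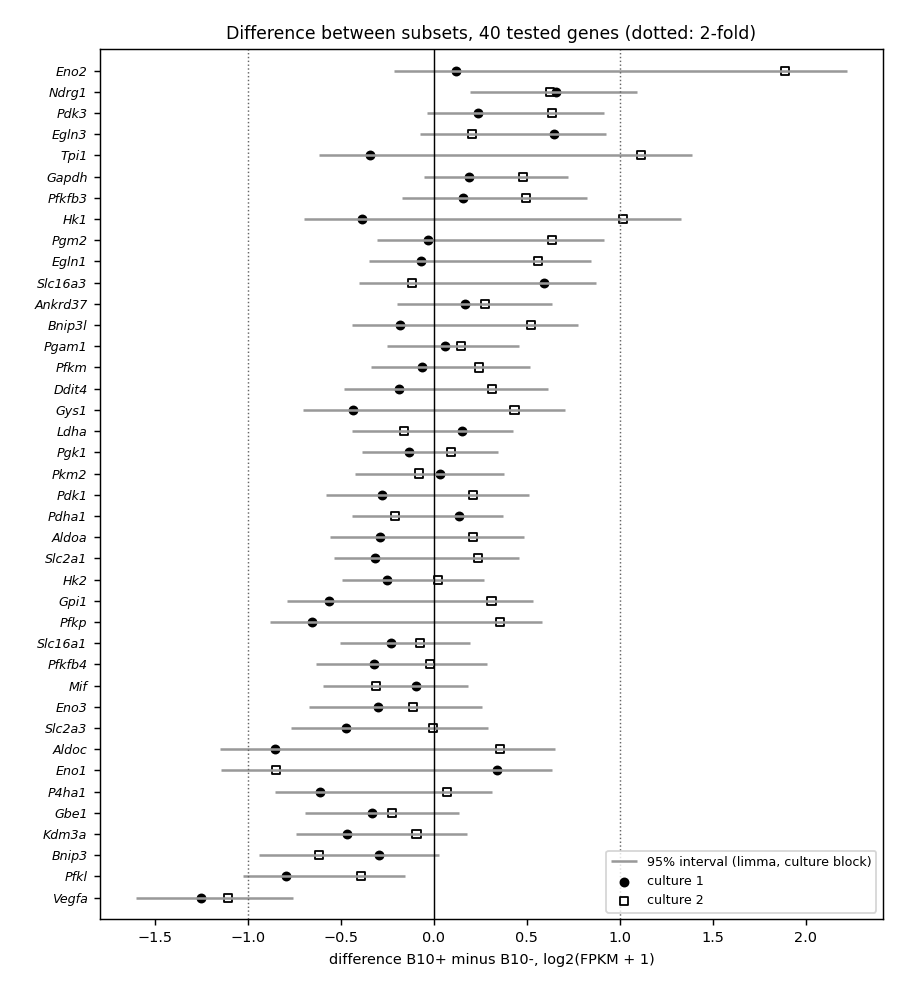
The difference B10+ minus B10- on the log2(FPKM + 1) scale is plotted for the 40 tested genes in culture 1 (filled circles) and culture 2 (open squares), with the 95% limma interval of their mean (grey bars) and dotted lines at 2-fold. Most genes lie near 0 with the cultures on opposite sides of it, and Vegfa lies below -1 in both cultures.

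The same genes separated the 2 cultures widely. Both libraries of a culture lay apart from both libraries of the other for 38 of the 40 members (all tested entries: 80.4%), and 37 were lower in culture 2 in both subsets (all tested entries: 56.3%). On the log2(FPKM + 1) scale, 29 members were more than 2-fold lower in culture 2 in both subsets, 72.5% of the 40, against 19.0% of all tested entries. In both subsets 0 were more than 2-fold higher, against 9.19%. The split depends on scaling: after quantile normalization 26 members were lower and 2 higher (all tested entries: 12.1% and 13.5%), and after rescaling over entries of at least 1000 bp 25 were lower and 2 higher (all tested entries: 9.69% and 16.0%). More than 8-fold lower in both subsets on the log2(FPKM + 1) scale were 10 members against 0.743% of all entries. As ratios of FPKM, Egln3 also passed 8-fold, at 36.5-fold in B10+ and 84.1-fold in B10- cells. The median difference, culture 2 minus culture 1 on the log2(FPKM + 1) scale, was -1.85 in B10+ and -2.26 in B10- cells, while that of all tested entries was -0.28 and -0.32. These differences have no test, since each culture is a single one and its libraries are not independent. Culture and batch cannot be told apart. The summed level of 8 mitotic genes also differed, at 670.2 and 297 FPKM in culture 1 and 234 and 8.74 FPKM in culture 2, all 8 being higher in B10+ cells of both cultures. Its part in either result was not tested.

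**Figure D2:**
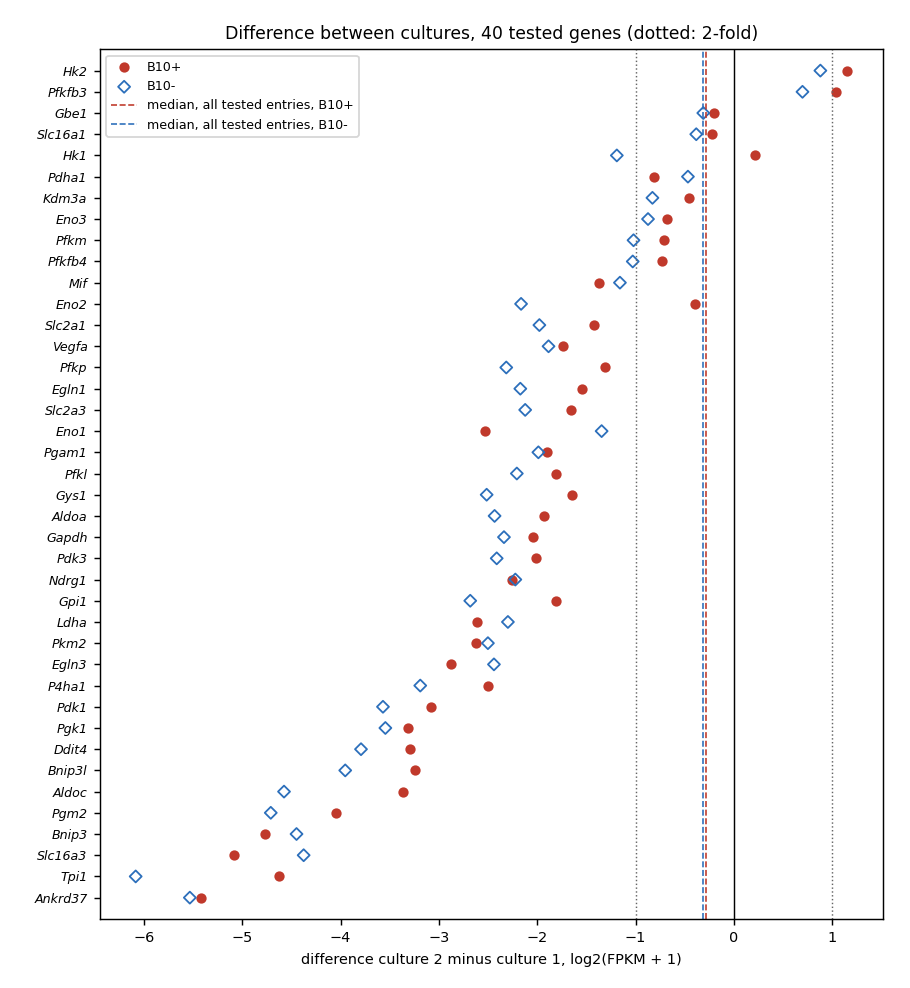
The difference culture 2 minus culture 1 on the log2(FPKM + 1) scale is plotted for the 40 tested genes in B10+ (filled circles) and B10- cells (open diamonds), with dashed lines at the medians of all tested entries and dotted lines at 2-fold. All genes but Hk2, Pfkfb3 and, in B10+ cells, Hk1 lie below 0, and Ankrd37 and Tpi1 lie lowest.

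Glucose enters through Slc2a1 (Glut1, the main transporter of stimulated lymphocytes) and Slc2a3 (Glut3, a high-affinity transporter). Slc2a1 was at 102 and 127 FPKM in culture 1 and 37.4 and 31.5 FPKM in culture 2. It was higher in culture 1, and in each culture the subsets were within 1.25-fold of each other, in opposite directions. Slc2a3 was at 16.3 and 23.1 FPKM in culture 1 and 4.52 and 4.53 FPKM in culture 2. Slc2a1 made up 84.6% to 89.2% of the summed FPKM of both genes in the 4 libraries. The interval of the subset difference was -0.53 to 0.46 for Slc2a1 and -0.77 to 0.29 for Slc2a3 on the log2 scale.

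Hexokinases trap glucose in the cell as glucose 6-phosphate. Hk2, the inducible form bound to mitochondria, was at 52.1 and 62.0 FPKM in culture 1 and 117 and 115 FPKM in culture 2. It was 2.24-fold higher in culture 2 in B10+ and 1.85-fold higher in B10- cells, but in B10- cells it was level or slightly lower (log2 difference -0.09) after rescaling to the same sum. After quantile normalization the log2 differences of Hk2 were 1.51 in B10+ and 1.20 in B10- cells. Hk1, the widely expressed form, was at 6.63 and 8.98 FPKM in culture 1 and 7.86 and 3.37 FPKM in culture 2. The subsets of Hk1 overlapped and differed in opposite directions in the 2 cultures. Hk2 held 87.3% to 97.1% of the hexokinase FPKM. Hk3, a form of myeloid cells, was between 0.0387 and 0.111 FPKM and was not tested.

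Gpi1 turns glucose 6-phosphate into fructose 6-phosphate and was at 97.8 and 145 FPKM in culture 1 and 27.2 and 21.8 FPKM in culture 2. Phosphofructokinase, the committing step, is built of Pfkl, Pfkm and Pfkp subunits. Pfkp, the platelet type, made up 68.0% to 78.1% of their FPKM, Pfkl (liver type) 21.4% to 31.7% and Pfkm (muscle type) under 1%. Pfkl (chromosome 10, 77449694 to 77472541, mm9) was at 68.7 and 119.8 FPKM in culture 1 and 18.9 and 25.1 FPKM in culture 2. It was lower in B10+ cells of both cultures, by 1.74-fold and 1.33-fold. The mean log2 difference was -0.59 ± 0.28 (SD, n = 2 cultures), and the blocked limma fit gave an adjusted p of 0.241. Pfkp was at 173 and 272 FPKM in culture 1 and 69.2 and 53.9 FPKM in culture 2, lower in B10+ cells of culture 1 and higher in those of culture 2.

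Pfkfb3 and Pfkfb4 make fructose 2,6-bisphosphate, which activates phosphofructokinase, and Pfkfb3 has the stronger kinase activity. Pfkfb3 was at 5.96 and 5.25 FPKM in culture 1 and 13.3 and 9.14 FPKM in culture 2. With Hk2 it was 1 of 2 members higher in culture 2 in both subsets, which for B10- cells turned to a log2 difference of -0.16 after rescaling to the same sum. After quantile normalization its log2 differences between cultures were 1.27 in B10+ and 1.06 in B10- cells. Pfkfb3 was higher in B10+ cells of both cultures with an interval of -0.17 to 0.82 (adjusted p = 0.462, blocked limma fit). Pfkfb4 was at 2.62 and 3.53 FPKM in culture 1 and 1.19 and 1.22 FPKM in culture 2. The share of Pfkfb3 in the summed FPKM of the pair was therefore 69.4% and 59.8% in culture 1 and 91.8% and 88.2% in culture 2.

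Aldoa, the aldolase of most tissues, had the highest mean level of the 43 genes. It was at 1778 and 2169 FPKM in culture 1 and 464 and 400.5 FPKM in culture 2. The gap between cultures was 3.83-fold in B10+ and 5.42-fold in B10- cells, while the subset difference was -0.037 with an interval of -0.56 to 0.49. Aldoc, the brain form of aldolase, was much lower, at 16.1 and 29.9 FPKM in culture 1 and 0.657 and 0.294 FPKM in culture 2. Aldoa held 98.6% to 99.9% of the aldolase FPKM.

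Tpi1 interconverts the 2 triose phosphates. Tpi1 (chromosome 6, 124760610 to 124764314, mm9) was at 872 and 1107 FPKM in culture 1 and 34.3 and 15.3 FPKM in culture 2. The gap between cultures was 25.4-fold in B10+ and 72.3-fold in B10- cells, the second largest of the 40 members on the log2(FPKM + 1) scale. The subsets differed in opposite directions, with log2 differences of -0.34 in culture 1 and 1.11 in culture 2. Its locus overlaps that of Spsb2 by 23 bp, an entry at 0.498 to 1.93 FPKM.

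Gapdh, which makes the first energy-rich intermediate and is often used as a reference gene, was at 310.1 and 272 FPKM in culture 1 and 74.4 and 53.0 FPKM in culture 2. It differed 4.17-fold and 5.14-fold between cultures in B10+ and B10- cells. It was also higher in B10+ cells of both cultures (log2 difference 0.33 ± 0.21, SD, n = 2 cultures; adjusted p = 0.373, blocked limma fit). Pgk1, which makes ATP in the next step, was at 459.7 and 505 FPKM in culture 1 and 45.3 and 42.3 FPKM in culture 2, a gap between cultures of 10.2-fold and 11.9-fold. Pgam1, the mutase that follows, was at 598 and 574 FPKM in culture 1 and 159 and 144 FPKM in culture 2. For Pgk1 and Pgam1 the subsets were within 1.11-fold in each culture, with intervals of -0.39 to 0.35 and -0.25 to 0.46 on the log2 scale. Processed copies of several of these genes lie elsewhere in the mouse genome, and how fragments that match several places were counted is not stated, so these levels are uncertain to that extent.

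The value of Eno1, the enolase of most tissues, is uncertain. The Eno1 entry was at 16.5 and 12.8 FPKM in culture 1 and 2.01 and 4.42 FPKM in culture 2, but the entry Gm5506 covers 11550 bp of the same locus and was at 329, 269, 56.6 and 30.8 FPKM in the same order. Summed, the pair was at 345 FPKM and 282 FPKM in culture 1 and at 58.6 and 35.2 FPKM in culture 2. The sum was higher in B10+ cells of both cultures, while the Eno1 entry alone was lower in B10+ cells of culture 2. Eno2, the neuronal enolase, was at 22.5 and 20.6 FPKM in culture 1 and 16.8 and 3.82 FPKM in culture 2. The log2 differences were 0.12 in culture 1 and 1.89 in culture 2, with a mean of 1.01 ± 1.25 (SD, n = 2 cultures). This mean was the largest positive difference of the 40 on the log2(FPKM + 1) scale, with an interval of -0.21 to 2.22 (adjusted p = 0.386, blocked limma fit). With Gm5506 counted to Eno1, Eno2 held 5.99% and 6.60% of the enolase FPKM in culture 1 and 21.1% and 8.68% in culture 2, in place of 48.1% and 47.7%, and 72.3% and 29.0%. Eno3, the muscle enolase, was at 4.45 to 9.81 FPKM.

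Pkm2 (the symbol under which the table lists pyruvate kinase of muscle type, now Pkm) was at 1769.8 and 1727 FPKM in culture 1 and 287 and 304 FPKM in culture 2. Its 2 splice forms are not separated in the table. Ldha, which turns pyruvate into lactate, was at 1488 and 1339 FPKM in culture 1 and 242 and 271 FPKM in culture 2. For these abundant enzymes the cultures differed by 5.68-fold to 6.16-fold and 4.94-fold to 6.14-fold, and the subsets by at most 1.12-fold in either culture. The log2 difference between subsets was -0.023 (interval -0.42 to 0.38) for Pkm2 and -0.0046 (interval -0.44 to 0.43) for Ldha. Ldhb, the heart form, was at 0.0291 and 0.0335 FPKM in culture 1, at 0.972 FPKM in B10+ cells of culture 2 and listed at 0 in the B10- cells of that culture, and was not tested.

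**Figure D3:**
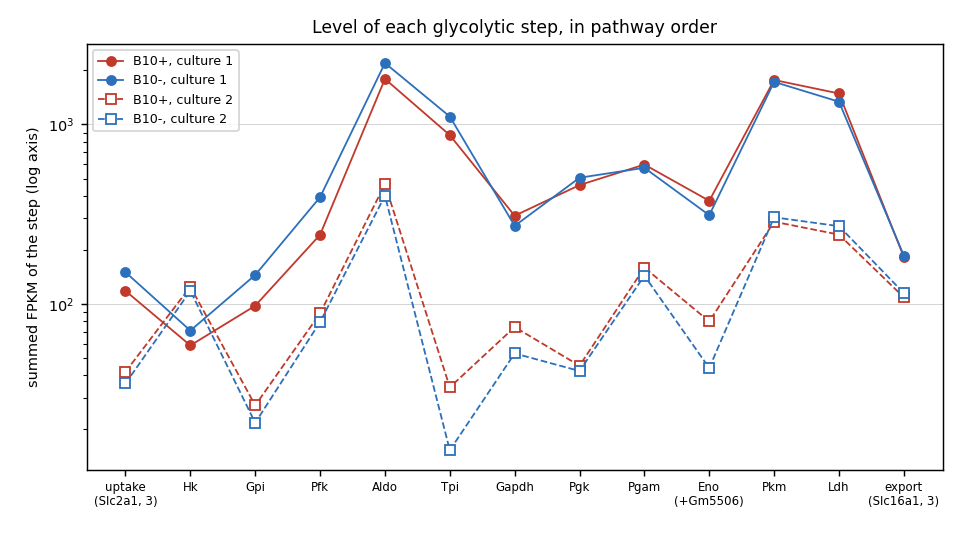
The summed FPKM of the genes of each step (log axis) is plotted in pathway order from glucose uptake to lactate export, with Eno1 counted together with the overlapping entry Gm5506, for B10+ (red) and B10- cells (blue) of culture 1 (filled circles) and culture 2 (open squares). Culture 1 lies above culture 2 at every step except hexokinase, with the widest gap at Tpi.

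Summed over the 19 glycolytic enzymes, the level was 7738 and 8376 FPKM in culture 1 and 1573 and 1463 FPKM in culture 2. Cultures differed 4.92-fold in B10+ and 5.72-fold in B10- cells. B10+ cells were at 0.924 of the B10- level in culture 1 and at 1.08 of it in culture 2. An exact permutation test of 2 libraries against 2 cannot give a two-sided p under 0.333, so none is given for sums and shares.

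Lactate leaves through Slc16a1 (Mct1) and Slc16a3 (Mct4, the exporter of strongly glycolytic cells). Slc16a1 was at 127 and 149 FPKM in culture 1 and 108 and 114 FPKM in culture 2. Slc16a3 was at 55.7 and 36.7 FPKM in culture 1 and 0.674 and 0.814 FPKM in culture 2. The cultures thus differed by 82.7-fold in B10+ and 45.1-fold in B10- cells for Slc16a3 while Slc16a1 differed by 1.17-fold and 1.31-fold. Slc16a3 made up 30.5% and 19.7% of the summed FPKM of the pair in culture 1 and 0.619% and 0.708% in culture 2.

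Pyruvate is admitted to mitochondrial oxidation by pyruvate dehydrogenase, whose subunit Pdha1 is switched off by the kinases Pdk1 and Pdk3. Pdk1, a well-known Hif1a target, was at 25.7 and 31.4 FPKM in culture 1 and 2.17 and 1.73 FPKM in culture 2. Pdk3 was at 41.1 and 34.6 FPKM in culture 1 and 9.41 and 5.69 FPKM in culture 2, higher in B10+ cells of both cultures (log2 difference 0.44 ± 0.28, SD, n = 2 cultures; adjusted p = 0.355, blocked limma fit). Pdha1 was at 51.8 to 91.6 FPKM, a gap between cultures of 1.77-fold in B10+ and 1.39-fold in B10- cells. Pdk3 held 61.5% and 52.4% of the summed FPKM of the kinase pair in culture 1 and 81.3% and 76.7% in culture 2.

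In glycogen metabolism, the entry Pgm2 lies on chromosome 4 (99602056 to 99659899, mm9), where RefSeq now names the phosphoglucomutase Pgm1. It was at 50.7 and 51.8 FPKM in culture 1 and 2.14 and 1.02 FPKM in culture 2, a gap between cultures of 23.7-fold and 51.0-fold. Gys1, the glycogen synthase of muscle and most other tissues, was at 5.14 and 7.29 FPKM in culture 1 and 0.960 and 0.451 FPKM in culture 2. Gbe1, the branching enzyme, differed by at most 1.26-fold between cultures, at 14.7 and 18.8 FPKM in culture 1 and 12.7 and 15.0 FPKM in culture 2. Gbe1 was the only tested member in which both B10+ libraries lay below both B10- libraries (all tested entries: 7.47%), with an interval of -0.69 to 0.14 (adjusted p = 0.458, blocked limma fit), and for 0 members did both lie above (all tested entries: 6.60%).

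**Figure D4:**
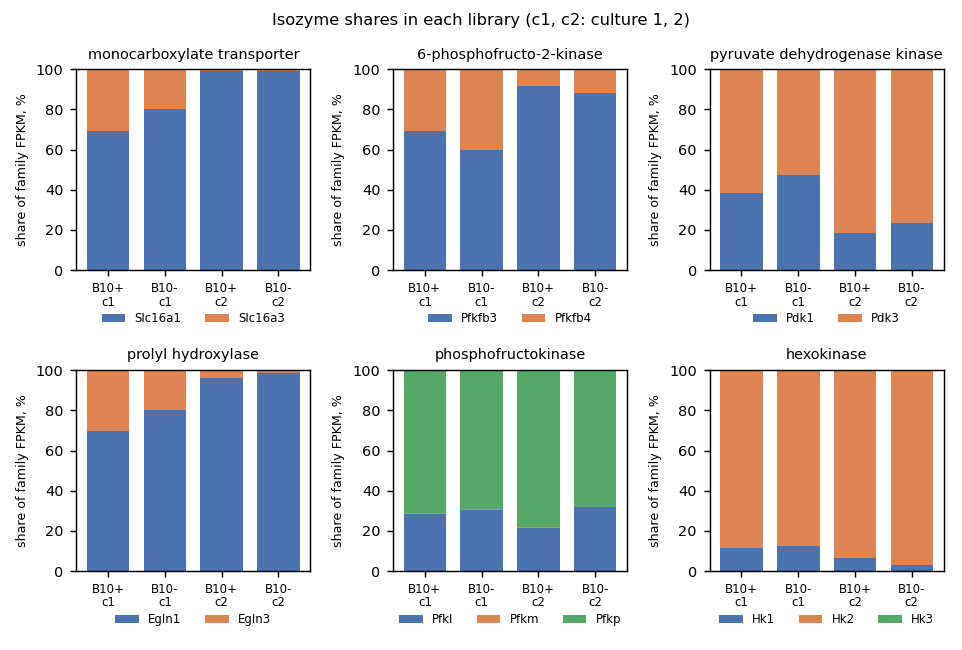
Each bar shows the share (%) of each gene in the summed FPKM of its family in a library, for B10+ and B10- cells of cultures 1 and 2. Slc16a3, Pfkfb4, Pdk1 and Egln3 hold larger shares in both libraries of culture 1, and the subsets of a culture lie closer to each other than the cultures do for these 4 families.

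Among the hypoxia response genes, Vegfa, the growth factor of blood vessels, differed most between subsets on the log2(FPKM + 1) scale. Vegfa (chromosome 17, 46153943 to 46169326, mm9) was at 17.6 and 43.3 FPKM in culture 1 and 4.57 and 10.99 FPKM in culture 2. B10+ cells were 2.46-fold lower in culture 1 and 2.40-fold lower in culture 2, while the groups overlapped across cultures. The log2 difference was -1.18 ± 0.11 (SD, n = 2 cultures), with an interval of -1.60 to -0.76 and an adjusted p of 0.0725 in the blocked limma fit and 1.0 in that without the block. After quantile normalization with the block the adjusted p was 0.0287, the single call of a member among the alternatives that kept all libraries. Leaving out 1 library in turn moved the log2 difference between -2.12 (lowest) and -0.24 (highest), with the gap between cultures entering by construction. Vegfa was also 3.84-fold and 3.94-fold lower in culture 2 in B10+ and B10- cells.

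Ndrg1, a stress-induced gene that Hif1a raises, went the other way between subsets. It was at 19.6 and 12.1 FPKM in culture 1 and 3.31 and 1.79 FPKM in culture 2. It was higher in B10+ cells by 1.63-fold and 1.85-fold as ratios of FPKM. On the log2(FPKM + 1) scale, which shrinks differences of low values, the difference was 0.64 ± 0.024 (SD, n = 2 cultures, adjusted p = 0.225, blocked limma fit). Egln3, a prolyl hydroxylase that Hif1a itself induces, was at 7.97 and 4.74 FPKM in culture 1 and 0.218 and 0.0563 FPKM in culture 2, higher in B10+ cells of both cultures (adjusted p = 0.377, blocked limma fit). Egln1, the main oxygen sensor of the family, was at 18.4 and 19.3 FPKM in culture 1 and 5.65 and 3.50 FPKM in culture 2. Egln3 made up 30.2% and 19.7% of the summed FPKM of both in culture 1 and 3.72% and 1.58% in culture 2. In culture 2 both Egln3 values were under 1 FPKM, the level of the filter, so its direction between subsets and its shares there are uncertain.

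Ankrd37, an ankyrin-repeat gene with strong Hif1a induction, had the widest gap between cultures of all 40 members. Ankrd37 (chromosome 8, 47082262 to 47085204, mm9) was at 110.2 and 98.1 FPKM in culture 1 and 1.59 and 1.14 FPKM in culture 2. The cultures differed 69.4-fold in B10+ and 86.2-fold in B10- cells, while the subset difference was 0.22 ± 0.078 on the log2 scale (SD, n = 2 cultures; adjusted p = 0.535, blocked limma fit). Bnip3 and Bnip3l direct mitochondria to autophagy. Bnip3 was at 48.1 and 59.2 FPKM in culture 1 and 0.794 and 1.76 FPKM in culture 2. It was lower in B10+ cells of both cultures, with an interval of -0.94 to 0.026 (adjusted p = 0.349, blocked limma fit). Bnip3l was at 60.0 and 68.3 FPKM in culture 1 and 5.42 and 3.47 FPKM in culture 2.

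Ddit4 (Redd1, an inhibitor of mTORC1) and P4ha1 (a collagen prolyl hydroxylase) were also lower in culture 2. Ddit4 was at 13.7 and 15.7 FPKM in culture 1 and 0.499 and 0.204 FPKM in culture 2, and P4ha1 at 51.9 and 79.9 FPKM in culture 1 and 8.33 and 7.87 FPKM in culture 2. Kdm3a, a histone demethylase, and Mif, a cytokine, had the smallest gaps between cultures among the tested hypoxia response genes. Kdm3a was at 20.8 and 29.2 FPKM in culture 1 and 14.9 and 16.0 FPKM in culture 2, and Mif at 635 and 679 FPKM in culture 1 and 245 and 304 FPKM in culture 2. Mif was the fifth most abundant member. Their subset differences had intervals of -0.74 to 0.18 and -0.59 to 0.19 on the log2 scale. Car9, a carbonic anhydrase often read as a hypoxia marker, was at 0.183 and 0.148 FPKM in culture 1, at 0.0235 FPKM in B10+ cells of culture 2 and listed at 0 in the B10- cells of that culture. Scaled by depth these values stand as 10, 7, 1 and 0 fragments, a number too small for a comparison.

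**Figure D5:**
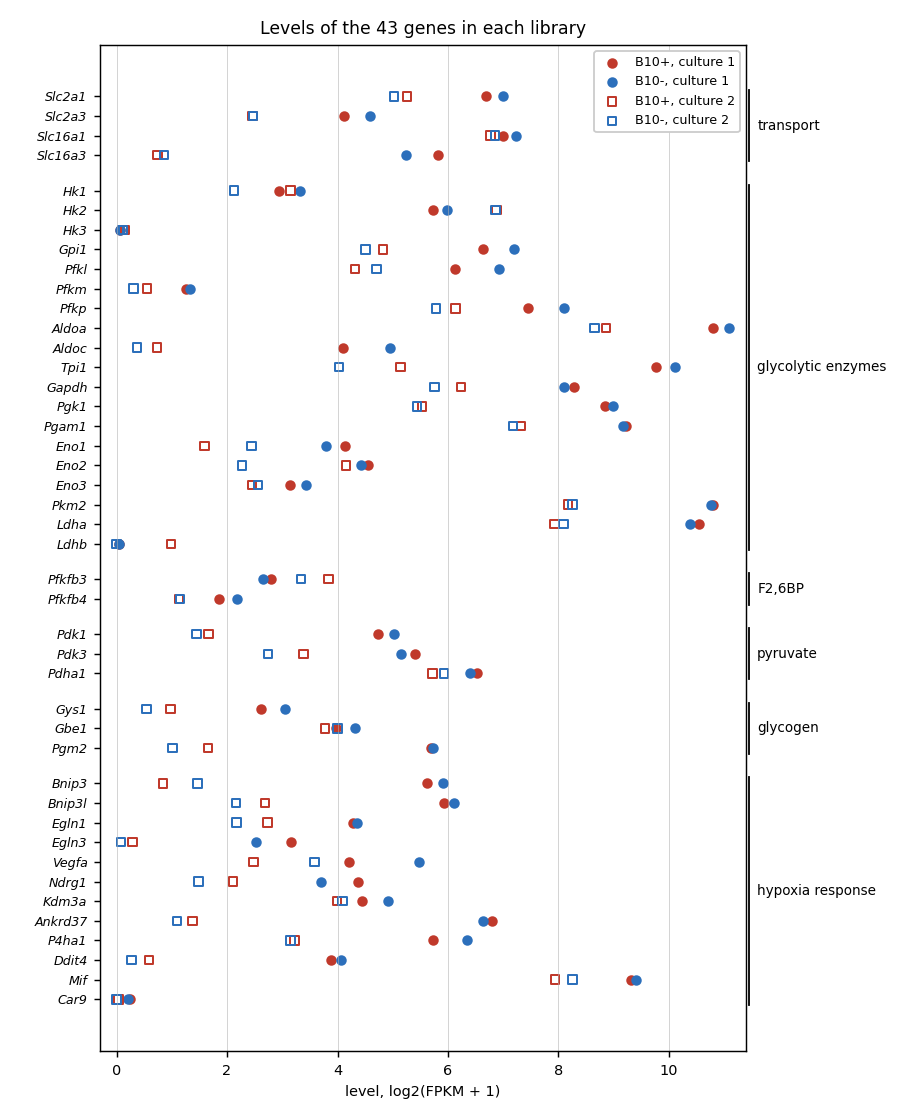
The level of each of the 43 genes is plotted as log2(FPKM + 1) in the 4 libraries, grouped by role, with B10+ in red, B10- in blue, culture 1 as filled circles and culture 2 as open squares. The filled circles of a gene lie close together and to the right of the open squares for most genes, and Hk2 and Pfkfb3 show the reverse order.

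The promoters of Ankrd37, Slc16a3 and Bnip3, 3 of the 5 members with the widest gap between cultures, and of Vegfa, the member with the smallest p between subsets, are shown for their ACGTG and GCGTG motifs. Capitals mark either motif on either strand (CACGT and CACGC on the printed strand), in the 250 bases before the RefSeq start on GRCm38.p6, 5′ to 3′ on the gene's strand. The windows are chr8:45999851-46000100 (minus strand), chr11:120948817-120949066 (plus strand), chr7:138909507-138909756 (minus strand) and chr17:46032378-46032627 (minus strand).
Ankrd37: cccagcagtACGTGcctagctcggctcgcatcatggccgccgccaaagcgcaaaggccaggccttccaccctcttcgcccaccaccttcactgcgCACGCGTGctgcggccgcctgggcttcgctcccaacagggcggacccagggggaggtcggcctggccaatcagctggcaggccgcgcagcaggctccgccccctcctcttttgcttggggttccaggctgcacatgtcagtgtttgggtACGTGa
Slc16a3: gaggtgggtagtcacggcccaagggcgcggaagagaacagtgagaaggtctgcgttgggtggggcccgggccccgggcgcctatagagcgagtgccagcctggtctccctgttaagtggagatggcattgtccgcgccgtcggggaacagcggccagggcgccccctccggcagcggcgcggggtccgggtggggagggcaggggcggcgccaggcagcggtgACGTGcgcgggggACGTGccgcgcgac
Bnip3: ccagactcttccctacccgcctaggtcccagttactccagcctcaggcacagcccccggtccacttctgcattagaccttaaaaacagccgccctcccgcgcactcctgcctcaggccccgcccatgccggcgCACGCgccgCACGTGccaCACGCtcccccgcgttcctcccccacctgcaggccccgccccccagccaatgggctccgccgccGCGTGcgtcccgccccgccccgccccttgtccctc
Vegfa: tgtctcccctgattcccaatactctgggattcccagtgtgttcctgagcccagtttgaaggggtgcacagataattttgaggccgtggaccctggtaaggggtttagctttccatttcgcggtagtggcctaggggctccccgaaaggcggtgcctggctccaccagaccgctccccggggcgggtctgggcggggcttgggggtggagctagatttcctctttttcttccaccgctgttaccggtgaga
Promoter windows of 300 bases, which add 50 bases after the start, were found for 40 of the 43 symbols on the chromosome of the deposited locus. ACGTG on either strand was in 22 of these 40 windows (55%) and in 19.7% of 27025 windows of all genes, and GCGTG in 21 (52.5%) against 32.5%. Either was in 31 (77.5%) against 43.8%, and in 9 of the 10 windows of hypoxia response genes. The windows of all genes were not limited to expressed genes or matched to the members in CG content, which both motifs hold. The motifs differ in their first letter alone, matches on the same or opposite strands can share bases, and a match is a description and not a site. The members were chosen as genes of glycolysis and the hypoxia response, on which Hif1a acts, so a share above that of all genes is partly built in. Among members more than 8-fold lower in culture 2, 7 of 9 windows held ACGTG (77.8%) and 8 of 9 either motif. Among those more than 2-fold lower, 16 of 26 held ACGTG (61.5%) and 20 of 26 either (76.9%), near the 55% and 77.5% of all members. A link between motifs and the gap between cultures was not tested. Tpi1, with the second widest gap between cultures, and Vegfa held neither motif in this window, and Hk2, which was higher in culture 2, held 2 matches of ACGTG.

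Related genes outside the 43 were read from 7 lists. Their counts past 2-fold between cultures, on the log2(FPKM + 1) scale, are to be read against 19.0% of all tested entries lower and 9.19% higher in culture 2. No member of these lists passed limma between subsets with or without the block over all 10367 entries. Myc, the factor that drives growth and glycolytic genes, came nearest, at 28.6 and 56.6 FPKM in culture 1 and 249.5 and 449 FPKM in culture 2. It was lower in B10+ cells of both cultures (log2 difference -0.90 ± 0.081, SD, n = 2 cultures; adjusted p = 0.0813, blocked limma fit). Its gap between cultures ran against that of the glycolytic enzymes, with 8.72-fold and 7.93-fold higher levels in culture 2 in B10+ and B10- cells. In the list of 19 tested regulators of glycolysis, 4 genes were more than 2-fold higher in culture 2 in both subsets, Myc, Mlxip (a glucose-sensing factor), Mtor (the kinase of mTORC1) and Rptor (its scaffold), and 2 were lower, Mlx and Txnip (an inhibitor of glucose uptake). That is 21.1% higher and 10.5% lower, against 9.19% and 19.0% of all tested entries. Rptor was at 5.68 and 7.89 FPKM in culture 1 and 22.2 and 28.5 FPKM in culture 2, with an adjusted p between subsets of 0.359 (blocked limma fit).

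Of 9 tested genes of the oxygen-sensing machinery, Vhl and Tceb2, parts of the ligase that removes Hif1a, were more than 2-fold lower in culture 2 and Hif1an, the asparagine hydroxylase that blunts Hif1a, was higher. These shares, 22.2% and 11.1%, were near those of all tested entries (19.0% and 9.19%). Hif1a was at 59.4 and 46.0 FPKM in culture 1 and 64.5 and 54.3 FPKM in culture 2, within 1.18-fold between cultures in both subsets. After rescaling to the same sum the log2 differences between cultures were 0.15 in B10+ and -0.73 in B10- cells. After quantile normalization they were 0.41 and 0.49. The subset difference of Hif1a was 0.30 ± 0.082 (SD, n = 2 cultures, adjusted p = 0.375, blocked limma fit). Rbx1, another subunit of the ligase, had an adjusted p between subsets of 0.454 (blocked limma fit). Hif1a is controlled mainly through its protein, which these data do not measure.

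Of 16 tested genes of a second list of hypoxia-induced genes, 7 were more than 2-fold lower in culture 2 in both subsets (Ak4, Hmox1, Anxa2, Adm, Higd1a, Fam162a and P4ha2) and 1 was higher, Cited2, a gene whose protein competes with Hif1a for its coactivator. The shares were 43.8% lower and 6.25% higher, against 19.0% and 9.19% of all tested entries. Ak4, an adenylate kinase of mitochondria, was at 13.99 and 18.6 FPKM in culture 1 and 0.259 and 0.2001 FPKM in culture 2, and Cited2 at 36.3 and 31.7 FPKM in culture 1 and 189 and 170.2 FPKM in culture 2. Anxa2, a membrane-binding annexin, had the smallest p between subsets in this list, at 18.03 and 8.92 FPKM in culture 1 and 4.31 and 0.373 FPKM in culture 2 (adjusted p = 0.158, blocked limma fit), and Rora, a nuclear receptor, followed with 0.355. Genes of these lists named for their gap between cultures were chosen after their values were seen.

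Among 13 tested genes of the pentose phosphate and serine branches, Phgdh and Psph of serine synthesis and Taldo1 were more than 2-fold lower in culture 2, and Pgd was higher, shares (23.1% and 7.69%) near those of all tested entries (19.0% and 9.19%). Phgdh was at 172 and 136 FPKM in culture 1 and 24.5 and 26.7 FPKM in culture 2, and Psph at 106 and 73.2 FPKM in culture 1 and 6.63 and 6.33 FPKM in culture 2. Among 11 tested genes of pyruvate dehydrogenase and the pyruvate carrier, only Brp44 and Brp44l, the carrier subunits now called Mpc2 and Mpc1, were lower by that size (18.2%, near the 19.0% of all tested entries) and 0 were higher. Brp44 was at 69.1 and 56.0 FPKM in culture 1 and 18.1 and 14.03 FPKM in culture 2 (adjusted p = 0.369, blocked limma fit). Pygb was lower and Pygm and Gfpt1 were higher in culture 2 among 11 genes of glycogen breakdown and hexosamine synthesis (9.09% and 18.2%), and Bpgm and Slc2a8 were lower among 7 other glycolytic genes (28.6%). Between subsets the adjusted p in the blocked limma fit was 0.257 for Gyg, 0.324 for Pygm, 0.355 for Shmt2, 0.380 for Pgls, 0.393 for Minpp1, 0.399 for Pdp1 and 0.419 for Slc2a6. Of the 28 genes in these 7 lists past 2-fold between cultures, 14 stayed past it in the same direction after quantile normalization, rescaling to the same sum, rescaling over entries of at least 1000 bp and with pseudocount 0.1. Bpgm, Mlx, Pygb, Slc2a8, Tceb2, Txnip and Vhl lost it after rescaling over longer entries, P4ha2 after quantile normalization, and Gfpt1, Hif1an, Mtor, Pgd, Pygm and Rptor after rescaling to the same sum.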

How the data were processed

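The authors deposited 1 table of FPKM values with 1 column per library, per the deposited sample sheet. Per the labels' protocols, rRNA was removed from total RNA before library preparation. Per the submitters' processing notes, bcl2fastq 1.8.4, DESeq, TopHat 1.3.2, Cufflinks 2.1.1 and the build mm9 were used, with no role stated, and settings, annotation and strand handling were not found. Without strand, reads of overlapping genes cannot be told apart, and 7 members overlap another entry. Of 20979 entries matched by symbol to RefSeq, 8901 had its gene length as end minus start and 549 as that plus 1, so starts count from 0 and 1 was added.

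Values were tested as log2(FPKM + 1), a scale that understates the change of low genes, with limma-trend (limma 3.58.1, R 4.3.3), two-sided, over the 10367 entries with at least 1 FPKM in at least 2 libraries, with Benjamini-Hochberg adjustment and a threshold of 0.05. The fit set as primary has no term for the culture. The labels pair the libraries by culture, and within a culture the libraries' deviations from their group means had r = 0.865 over entries, so a second fit, with a replicate block for the culture, is printed too. Fragment steps were read from entries under 0.2 FPKM with a single GENCODE transcript of at least 1500 bases. Of these values, 29.5% to 38.0% were whole within 0.05, against 10% by chance. The step was fitted to these same values, so part of the excess was fixed in advance. Counting error is not in the SDs.

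The 43 members and all lists were chosen with earlier results of these data known. Text names members past the threshold, the 12 with the smallest p with the block, the 5 most abundant, the 5 with the widest gap between cultures, isozyme families and untested members; of related lists, the 2 with the smallest p. Other names were chosen after their values were seen. The procedure was run on simulated data with the same noise for all genes and planted changes larger than any mean difference between subsets among the members. That run does not show whether differences of the members' size would be found. Results for 1 gene are not reported here.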

Additional observations from a re-analysis of the deposited data

How the results depend on the processing

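The 40 tested members gave 0 calls without the block in every alternative that kept all libraries, and with the replicate block in all but quantile normalization, where 1 was lower (Vegfa, log2 difference -1.24, adjusted p 0.0287). Over all entries the replicate block gave 81 higher and 8 lower calls, with quantile normalization 167 and 23, with FPKM rescaled to the same sum 58 and 5, with rescaling over entries of at least 1000 bp (chosen after seeing the data) 67 and 8, with at least 5 FPKM in 2 libraries 62 and 9, and with pseudocount 0.1 53 and 7. Without the block, pseudocount 0.1 gave 1 lower call and rescaling to the same sum 4 higher and 4 lower. That rescaling moved the library medians of all entries, on the log2 scale, from 3.96 and 3.99 in culture 1 and 3.80 and 3.69 in culture 2 to 4.13 and 4.37 and to 4.01 and 3.16 (B10+ first); it turned Aldoa (0.25), Pkm2 (0.26), Ldha (0.28) and Mif (0.082), with and without the block, and set the members' median at 0.20. Rescaling left 29 members lower in culture 2, pseudocount 0.1 31, quantile normalization 26 and rescaling over longer entries 25, the last 2 with 2 members higher; medians were -1.71 (quantile), -2.44 (same sum) and -1.63 (longer entries), while that of all entries was -0.02, -0.71 and 0.10. With Gm5506 counted to Eno1, the mean share of Eno2 in the enolase FPKM over the 4 libraries was 10.6% (5.99% to 21.1%) in place of 49.3% (29.0% to 72.3%). Every symbol had 1 locus, so summing loci changed nothing.

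Leaving out a library sets 1 culture against both in a subset, so the culture gap enters by construction and the lone library is assumed to vary like the others; with the block no residual degree of freedom is left. Calls over all entries then ranged from 1 to 130 higher and 3 to 14 lower, members called higher from 0 to 1 (Tpi1, without B10- replicate 1), and the members' median from -1.09 to 1.20. Log2 differences that changed sign ranged as follows: Ndrg1 -0.49 to 1.77, Pfkl -1.70 to 0.51, Bnip3 -2.84 to 1.93, Pdk3 -0.77 to 1.65, Gapdh -0.84 to 1.503, Egln3 -1.01 to 1.87, Eno2 -0.077 to 2.09, Pfkfb3 -0.19 to 0.85, Kdm3a -0.69 to 0.13, Ankrd37 -2.55 to 2.99, Aldoa -1.25 to 1.18, Pkm2 -1.33 to 1.29, Ldha -1.31 to 1.302, Tpi1 -2.66 to 3.43, Mif -0.89 to 0.48, Slc16a3 -2.30 to 2.78, Pgm2 -2.05 to 2.66, Rbx1 -0.78 to 0.19, Slc2a6 -0.85 to 0.14, Pgls -0.24 to 0.96, Brp44 -0.64 to 1.28, Pygm -1.25 to 0.30, Myc -2.44 to 0.64 and Rptor -1.28 to 0.52. Those that kept their sign still moved widely in part: Vegfa -2.12 to -0.24, Anxa2 0.020 to 2.87, Gbe1 -0.43 to -0.12, Shmt2 -0.85 to -0.019, Pdp1 -0.79 to -0.098, Rora 0.21 to 1.21, Gyg 0.39 to 0.70, Hif1a 0.19 to 0.42 and Minpp1 0.25 to 0.34.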
